A study of Mus musculus with 30 samples.

Results

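The Myc network was read here through Myc (c-Myc), Nmyc1 (N-myc, now named Mycn), Max, Mxi1 and Mnt. All probes carrying one of these 5 gene names on the array were taken, whatever their values, which gave 9 of 41174 probes and 5 of 21689 named genes. Myc had 3 probes, Nmyc1 and Mxi1 had 2 each, and Max and Mnt had 1 each. They are shown one by one because the Myc probes disagreed in sign. The study asked how much of the transcriptional response to stress in mouse embryonic fibroblasts (MEFs) passes through the stress-activated kinase p38. It used 30 two-colour arrays in 15 groups of 2, and on each array one treated or mutant culture (Cy5) was set against a pool of 2 untreated wild type cultures (Cy3). Every value below is the log2 ratio of the sample over that pool, on a relative scale with no absolute level.

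Wild type MEFs received anisomycin, a translation inhibitor, at 25 ng/ml for 45 min, the cytokine TNFα at 100 ng/ml for 45 min, or NaCl at 100 mM for 45 min, 2 h or 8 h. The 5 treatments were repeated after SB203580, an inhibitor of p38α and p38β, which was also given alone. The treatment protocol gives SB203580 at 10 µM for 30 min before the stress, whereas the sample titles give another unit and time. MEFs lacking p38α (p38α-/-) were left untreated or received anisomycin or TNFα for 45 min or NaCl for 2 h. All MEFs were immortalised and growing exponentially. Whether each genotype was a single line was not stated.

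Myc and N-myc are basic helix-loop-helix leucine zipper proteins that bind E-box DNA as dimers with Max and activate genes of growth and proliferation. Mxi1 and Mnt pair with the same partner, Max, and repress through Sin3 corepressors, so that the members compete for one partner and for the same sites. Myc mRNA is very short-lived and is known as an immediate early transcript in fibroblasts, while N-myc is best known from the embryo and from neural tumours.

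The promoter windows of 4 member genes were searched because Myc and Max dimers bind the E-box, and because stress and growth signals are known to reach promoters through the other motifs. The windows come from RefSeq (build GRCm38.p6) and run from 250 bases before to 50 bases after a start that the table of windows uses, which need not be the outermost base of the gene locus given further on. The table of windows listed Nmyc1, Max, Mxi1 and Mnt but had no entry for Myc. The E-box CACGTG, which reads the same on both strands, lay in 7.15% of all 32851 windows, and in those of Max and Mnt. The E2F motif TTTGGCGC (or GCGCCAAA on the other strand) lay in 0.514% of windows and at 2 places in that of Nmyc1. None of the 3 Mxi1 windows held either. The AP-1 motif TGANTCA (7.81% of all windows) and the CRE motif TGACGTCA (1.79%) were in no member window. A match is a description of letters, not a bound site. Distances count from the first base of the motif to the start of its window. The Max motif spans that start and lies within the Max locus. Capitals mark the motif, each sequence runs 5′ to 3′ along the gene's strand, and the Nmyc1 pieces overlap.
Max, minus strand of chr12:76962235-76962262, motif beginning 3 bases before the window's start: gtgagcccggtCACGTGttagggggccg
Mnt, plus strand of chr11:74830790-74830817, motif beginning 123 bases before the window's start: cccacccaagcCACGTGtgcgcgcgcgg
Nmyc1, minus strand of chr12:12941986-12942015, motif beginning 168 bases before the window's start: gcgcgaaaggcTTTGGCGCctcccctgatt
Nmyc1, minus strand of chr12:12942001-12942030, motif beginning 183 bases before the window's start: agcaaatggctTTTGGCGCgaaaggctttg

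In that build Myc lies at chr15:61985341-61990361, Nmyc1 at chr12:12936093-12941836, Max at chr12:76937269-76962323, Mxi1 at chr19:53310128-53373293 and Mnt at chr11:74830806-74845725. All 270 member values (9 probes on 30 arrays) were well above background in both channels. On 45 of them the scanner software had marked the spot as an outlier, and these were left out, which left 225. A comparison was tested only where both arrays of each group were measured, and the kept outlier values are given as such where they matter. Over whole arrays, 6.78% to 44.8% of spots were marked in this way. With its outlier-marked spots kept, the probe for the deleted gene, Mapk14, lay between 0.03 and 1.31 on the wild type arrays and below 0 on every p38α-/- array. Of the fibroblast marker probes 13 of 15 were well above background on all arrays, as were 2 of 2 epithelial, 2 of 4 endothelial and 6 of 9 leukocyte probes, so the markers do not separate cell types on these arrays. In bulk RNA, fewer cells of a type and less RNA per cell cannot be told apart.

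No untreated wild type culture was hybridised, so the pool stands for the control and its own spread is missing from every test. The dyes were never swapped. A constant offset of a probe between the dyes therefore cannot be told apart from a difference from the pool. A probe was called at an adjusted p under 0.05 (limma, Benjamini-Hochberg over all probes tested).

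Against the pool, 3 of the 5 member probes that could be tested rose with anisomycin (6.97% of all probes tested rose) and 0 fell (6.39% of all fell). With TNFα 2 of 6 rose (7% of all probes) and 1 fell (6.23%). After 45 min of NaCl 2 of 5 rose (5.88%) and 1 fell (5.89%). After 2 h 5 of 8 rose (6.33%) and 0 fell (6.14%), and after 8 h 4 of 8 rose (10.5%) and 1 fell (10.1%). The probes that rose were those of Myc, Nmyc1 and Max, and the one that fell was that of Mnt. Counts cover several probes of one gene and are not independent.

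SB203580 alone gave 1 rise among 5 tested probes (16.8% of all probes rose) and 1 fall (12.8%). Before anisomycin it gave 1 rise in 7 (7.3%) and 2 falls (7.19%), and before TNFα 2 rises in 7 (7.34%) and 0 falls (4.79%). Before NaCl, 2 of 5 rose (11.1%) and 0 fell (9.34%) at 45 min, 4 of 7 rose (11.1%) and 1 fell (9.12%) at 2 h, and 1 of 5 rose (11%) and 0 fell (10%) at 8 h. Untreated p38α-/- MEFs had 1 rise in 5 (8.53%) and 0 falls (6.88%). With anisomycin they had 3 rises in 7 (6.91%) and 1 fall (6.2%), with TNFα 1 rise in 6 (3.91%) and 0 falls (4.63%), and with NaCl for 2 h 5 rises in 8 (9.54%) and 1 fall (10.3%). All of these comparisons share the pool.

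Myc transcripts were raised by every stress that could be tested in wild type MEFs, on a pair of probes that followed each other closely. On probe A_52_P108346 the arrays read 2.73 and 1.41 with anisomycin, 3.46 and 2.47 with TNFα, 3.60 and 2.72 after 2 h of NaCl, and 1.96 and 1.58 after 8 h. All of these arrays were above 0, and among first and second arrays alike 2 h of NaCl stood highest and TNFα next. Myc rose 4.20-fold with anisomycin (log2 2.07 ± 0.93, SD, n = 2, adjusted p = 0.0064) and 7.79-fold with TNFα (2.96 ± 0.70, adjusted p = 0.000555). In NaCl it rose 8.95-fold at 2 h (3.16 ± 0.63, adjusted p = 0.000234) and 3.41-fold at 8 h (1.77 ± 0.27, adjusted p = 0.00889). At 45 min of NaCl only the first array was measured, at 2.35, and with the outlier spot of the second (1.06) kept the mean of 1.71 passed (adjusted p = 0.0146, with 5.55% of all probes called higher on that setting). The other probe, A_51_P102096, rose at 45 min of NaCl (2.13 and 0.87, 2.83-fold, adjusted p = 0.0403), as it did with anisomycin (2.69 and 1.23, adjusted p = 0.0103), at 2 h (3.22 and 2.62, adjusted p = 0.000721) and at 8 h (1.59 and 1.56, adjusted p = 0.0196).

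**Figure D1:**
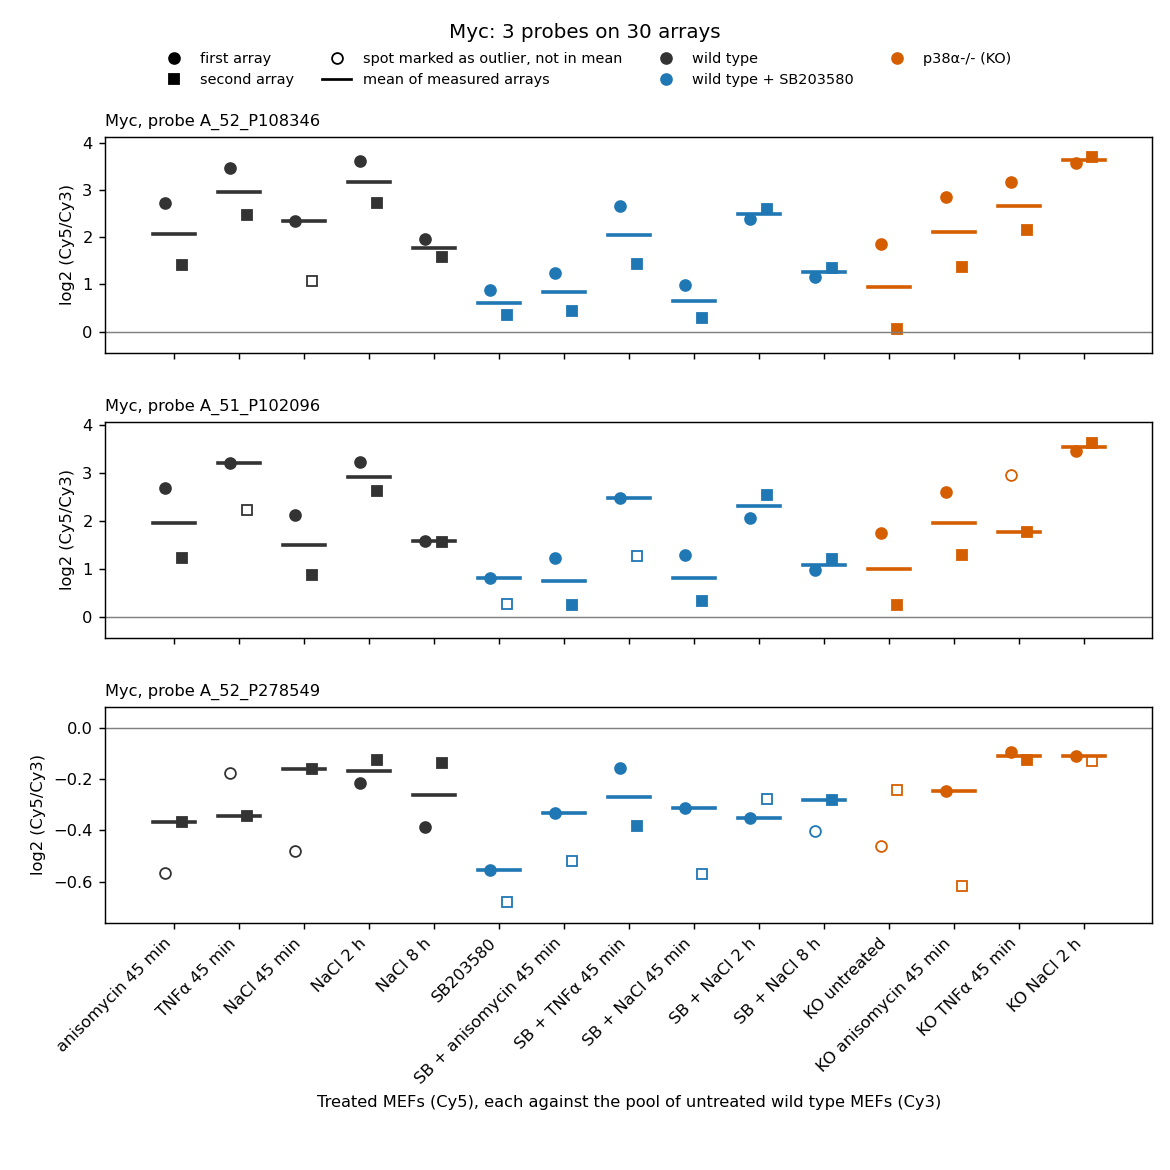
Log2 ratio over the untreated wild type pool for the 3 Myc probes in the 15 groups. Each point is 1 array, and the short bar is the mean of the arrays whose spot was not marked as an outlier. Probes A_52_P108346 and A_51_P102096 lie above 0 on every array and reach 3.69 and 3.63, whereas A_52_P278549 stays below 0 throughout.

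The first array of a pair tended to be the higher for Myc. On A_52_P108346 this was so in 8 of the 10 wild type groups with both arrays (median difference 0.74, range -0.22 to 1.32) and in 3 of 4 p38α-/- groups. All first wild type arrays were scanned together, apart from the second ones, and the part of the scan date in this spread was not tested. Leaving out the first array ended the anisomycin call on this probe (1.41, adjusted p = 0.295), and leaving out either NaCl 8 h array ended that one (1.58 and 1.96, adjusted p = 0.143 and 0.0706). The calls at TNFα and at 2 h of NaCl held whichever array was left out, with adjusted p up to 0.0485 and 0.0333. On A_51_P102096 the calls ended without the first anisomycin array (1.23, adjusted p = 0.358), without either 45 min NaCl array (0.87 and 2.13, adjusted p = 0.593 and 0.0601), without the first 2 h array (2.62, adjusted p = 0.0512) and without either 8 h array (adjusted p = 0.153 and 0.152).

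With SB203580 before the stress Myc was still raised by TNFα and by 2 h of NaCl, while the arrays of the other treatments lay nearer the pool. SB203580 alone read 0.87 and 0.35 on A_52_P108346 (adjusted p = 0.324). With anisomycin added the arrays read 1.23 and 0.45 (adjusted p = 0.223, and 0.0426 when the replicate number was added as a block), and with 45 min of NaCl 0.99 and 0.29 (adjusted p = 0.345). These 6 arrays were all above 0 and overlapped one another. With TNFα they read 2.67 and 1.42, a 4.12-fold rise (2.04 ± 0.88, adjusted p = 0.00822) that ended without the first array (adjusted p = 0.319). After 2 h of NaCl they read 2.39 and 2.60, a 5.64-fold rise (2.50 ± 0.15, adjusted p = 0.0012) that ended without the second (2.39, adjusted p = 0.059). The 8 h arrays, at 1.16 and 1.36, did not pass (adjusted p = 0.055, and 0.00381 with the block). The second probe rose after 2 h of NaCl (2.07 and 2.54, adjusted p = 0.00273), a call that ended without the second array (2.07, adjusted p = 0.103). At 8 h it read 0.97 and 1.21 (adjusted p = 0.0949, and 0.0295 with the block).

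Myc in p38α-/- MEFs rose under all 3 stresses against the wild type pool, in the fit that takes its spread from all 30 arrays. With only p38α-/- arrays in the fit, the NaCl calls of both rising Myc probes held and the calls with anisomycin and TNFα ended. The untreated p38α-/- arrays lay far apart, at 1.85 and 0.06 on A_52_P108346 (0.95 ± 1.27, adjusted p = 0.172, and 0.0257 with the block), so the baseline of this genotype was poorly fixed. Anisomycin gave 2.85 and 1.36, a 4.30-fold rise (adjusted p = 0.00541). TNFα gave 3.18 and 2.15, a 6.34-fold rise (adjusted p = 0.00138). Both calls ended without the first array of the group (adjusted p = 0.166 and 0.138). NaCl for 2 h gave 3.58 and 3.69, a 12.4-fold rise (3.63 ± 0.08, adjusted p = 4.57e-05) that held whichever array was left out. The second probe also rose with NaCl (3.45 and 3.63, adjusted p = 0.000121) and with anisomycin (2.61 and 1.28, adjusted p = 0.0102, ended without the first array, 1.28, adjusted p = 0.194).

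The third Myc probe, A_52_P278549, carried the same accession as the other Myc probes and went the other way. It was below 0 on 18 of 18 measured arrays, from -0.55 to -0.09, SB203580 alone included, and on 30 of 30 with the outlier spots kept, untreated p38α-/- MEFs included. It was opposite in sign to A_52_P108346 on all 17 arrays where both were measured. Over those 17 arrays the Pearson correlation was 0.653, while A_52_P108346 and A_51_P102096 correlated at 0.989 over 25 arrays that share libraries. Both arrays were measured in 4 groups, and none passed against the pool (2 h NaCl -0.17, adjusted p = 0.357; 8 h NaCl -0.26, adjusted p = 0.149; SB203580 with TNFα -0.27, adjusted p = 0.166; p38α-/- with TNFα -0.11, adjusted p = 0.663). Its Cy5 signal ran from 20509 to 142770 and was saturated on 0 arrays.

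Nmyc1 rose with NaCl above all, and the rise was largest at 2 h. On A_52_P536494 the wild type arrays read 1.66 and 1.53 at 45 min, 3.003 and 2.79 at 2 h, and 0.84 and 1.14 at 8 h. The time points did not overlap. Nmyc1 was 3.02-fold above the pool at 45 min (log2 1.60 ± 0.09, SD, n = 2, adjusted p = 1.84e-05), 7.44-fold at 2 h (2.90 ± 0.15, adjusted p = 1.94e-08) and 1.98-fold at 8 h (0.99 ± 0.22, adjusted p = 0.000207), and these calls held whichever array was left out. TNFα left the arrays at 0.19 and 0.50 (adjusted p = 0.155). With anisomycin only the first array was measured, at 0.80, and with the outlier spot of the second (0.73) kept the mean of 0.77 passed (adjusted p = 0.00128, with 7.33% of all probes called higher on that setting).

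**Figure D2:**
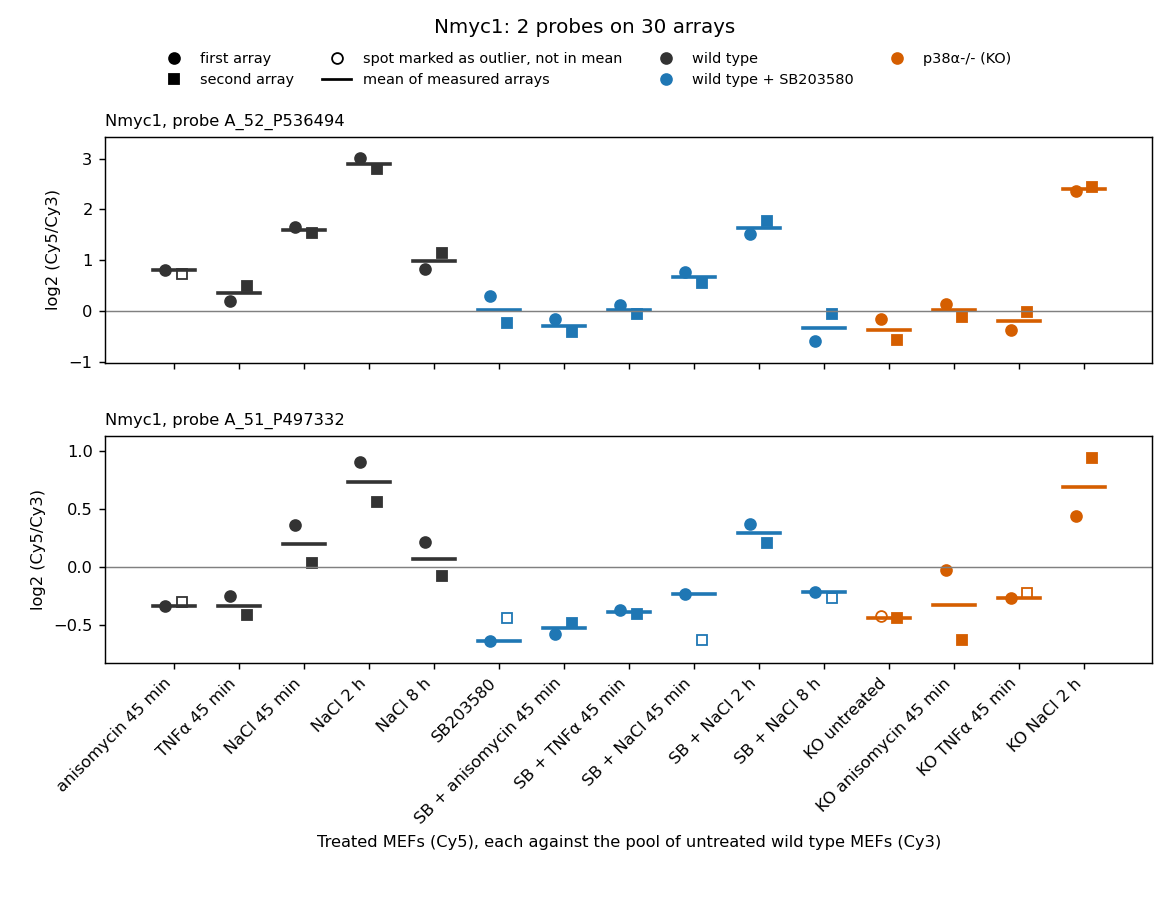
Log2 ratio over the untreated wild type pool for both Nmyc1 probes in the 15 groups, drawn as for Myc. On A_52_P536494 the 2 h NaCl arrays of wild type, SB203580-treated and p38α-/- MEFs (1.52 to 3.003) lie above all other arrays of the same kind of cells, and A_51_P497332 spans a narrower range.

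With SB203580 Nmyc1 still rose in NaCl at 45 min and 2 h and no longer passed at 8 h. The inhibitor alone read 0.30 and -0.25 (adjusted p = 0.941). With NaCl the arrays read 0.77 and 0.56 at 45 min, 1.52 and 1.76 at 2 h, and -0.60 and -0.06 at 8 h, so the 8 h arrays overlapped those of the inhibitor alone. Nmyc1 was 3.12-fold above the pool at 2 h (1.64 ± 0.17, adjusted p = 5.8e-06) and 1.58-fold at 45 min (0.66 ± 0.15, adjusted p = 0.0068), and at 8 h the mean was -0.33 (adjusted p = 0.144). The 45 min call ended without either array (0.56 and 0.77, adjusted p = 0.137 and 0.0673), and the 2 h call held. With anisomycin (-0.16 and -0.42, adjusted p = 0.221) and TNFα (0.11 and -0.07, adjusted p = 0.968) the arrays stayed near 0.

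Nmyc1 in p38α-/- MEFs rose with NaCl and stayed near its untreated values with the other stresses. Untreated arrays read -0.16 and -0.58 (adjusted p = 0.12), anisomycin arrays 0.14 and -0.11 (adjusted p = 0.984), and TNFα arrays -0.38 and -0.02 (adjusted p = 0.519). The TNFα arrays overlapped the untreated ones and the anisomycin arrays lay just above them. The 2 h NaCl arrays, at 2.35 and 2.45, were far above them, 5.28-fold over the pool (2.40 ± 0.07, adjusted p = 5.36e-08) whichever array was left out.

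The other Nmyc1 probe, A_51_P497332, moved with it on a smaller scale (Pearson 0.887 over 24 arrays) and read lower on 21 of the 24. It was opposite in sign on 8 of 24. It rose at 2 h of NaCl in wild type (0.90 and 0.56, 1.66-fold, adjusted p = 0.0115) and in p38α-/- MEFs (0.43 and 0.94, 1.61-fold, adjusted p = 0.0105), which ended without the first wild type array (0.56, adjusted p = 0.304) or the second p38α-/- array (0.43, adjusted p = 0.256). With SB203580 the 2 h arrays read 0.36 and 0.21 (adjusted p = 0.239). It did not pass at 45 min (0.36 and 0.03, adjusted p = 0.447) or 8 h (0.21 and -0.08, adjusted p = 0.833), where A_52_P536494 did. It fell with SB203580 and anisomycin (-0.58 and -0.49, adjusted p = 0.0438), a call that ended without either array (-0.49 and -0.58, adjusted p = 0.321 and 0.198).

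Max, the common partner, was slightly above the pool on every array of every group, untreated p38α-/- and SB203580 alone included. The 29 measured arrays ran from 0.12 to 0.94 with a median of 0.50. In wild type MEFs they read 0.44 and 0.32 with anisomycin, 0.49 and 0.30 with TNFα, 0.94 and 0.51 at 2 h of NaCl, and 0.78 and 0.86 at 8 h. SB203580 alone, at 0.89 and 0.60, overlapped the NaCl arrays. Max passed in 13 of the 14 groups tested. It was 1.30-fold above the pool with anisomycin (0.38 ± 0.08, adjusted p = 0.0142), 1.32-fold with TNFα (0.40 ± 0.13, adjusted p = 0.0109), 1.65-fold at 2 h of NaCl (0.72 ± 0.30, adjusted p = 0.000109), 1.76-fold at 8 h (0.82 ± 0.06, adjusted p = 1.07e-05) and 1.67-fold with SB203580 alone (0.74 ± 0.21, adjusted p = 9.38e-05). The anisomycin and TNFα calls ended without either array (adjusted p from 0.0656 to 0.285 and from 0.068 to 0.248), the other 3 held.

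With SB203580 before the stress, Max ranged from 0.46 ± 0.03 with anisomycin (adjusted p = 0.00443) to 0.87 ± 0.05 at 8 h of NaCl (adjusted p = 9.33e-06). The calls with NaCl held whichever array was left out, and those with anisomycin (0.44 and 0.48, adjusted p = 0.104 and 0.0745) and TNFα (0.50 and 0.55, adjusted p = 0.113 and 0.059) ended without either. In p38α-/- MEFs the arrays ran from 0.12 to 0.46. Untreated cells read 0.39 and 0.30 (adjusted p = 0.0191), anisomycin 0.18 and 0.40 (adjusted p = 0.0489), TNFα 0.12 and 0.20 (adjusted p = 0.362) and NaCl 0.46 and 0.39 (adjusted p = 0.00451). Each of these 4 groups overlapped at least 1 other, and their 3 calls ended without either array of the group (adjusted p from 0.0516 to 0.574).

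**Figure D3:**
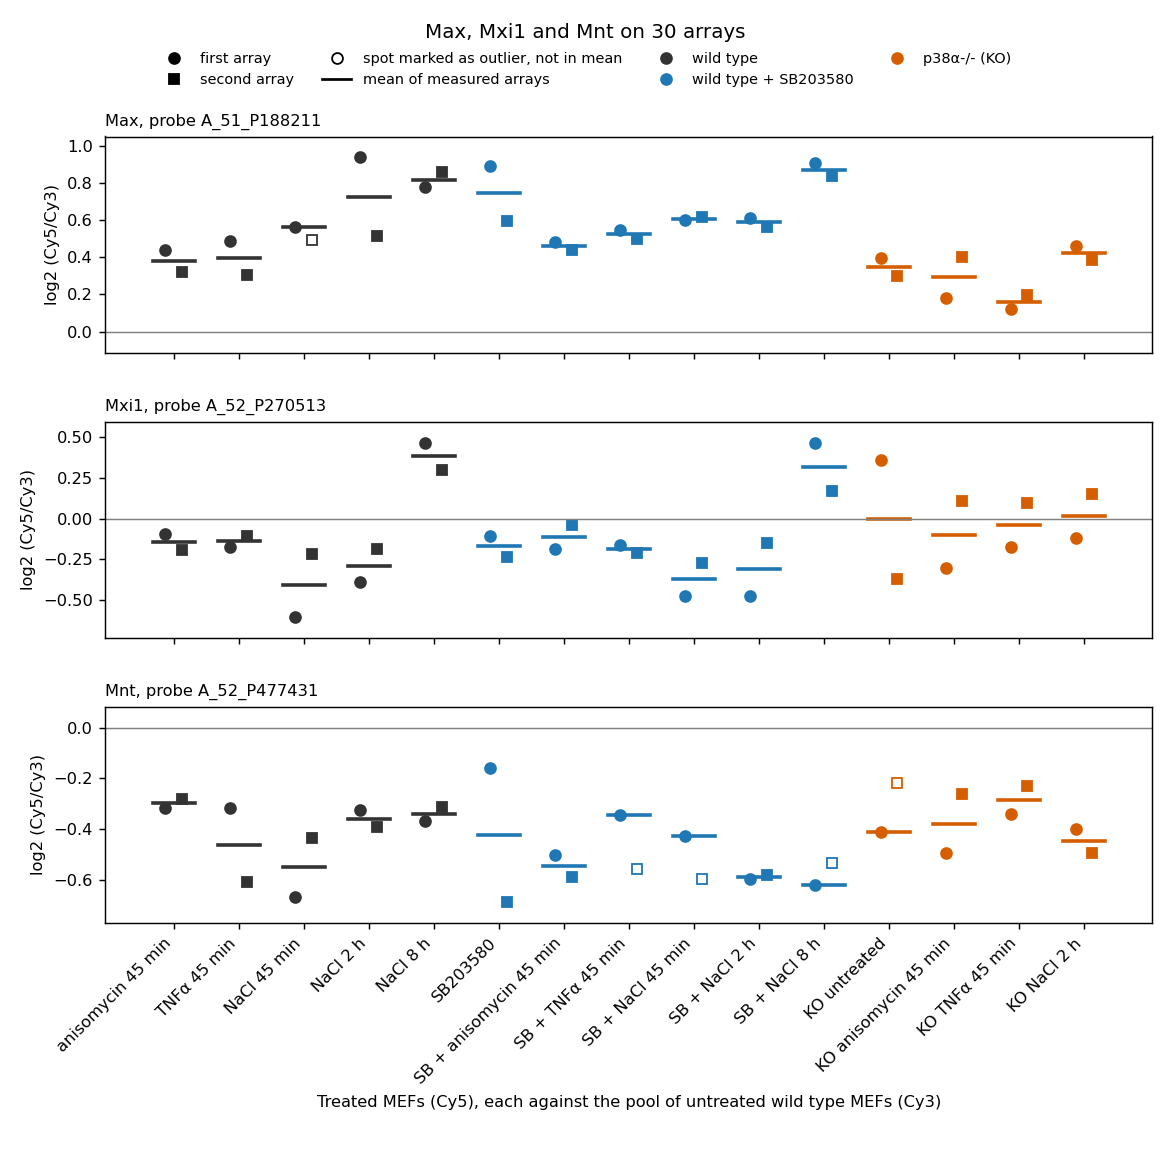
Log2 ratio over the untreated wild type pool for the probes of Max, Mxi1 and Mnt in the 15 groups, drawn as for Myc. Max is above 0 and Mnt below 0 on every array, and Mxi1 A_52_P270513 is above 0 on both 8 h NaCl arrays with and without SB203580.

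Mxi1, a repressive partner of Max, passed against the pool in none of the 15 groups on A_52_P270513 and lay higher at 8 h of NaCl than at 45 min. All 30 arrays were measured, from -0.60 to 0.47, with 8 above 0 and 22 below. In NaCl they read -0.60 and -0.21 at 45 min (adjusted p = 0.0796), -0.39 and -0.19 at 2 h (adjusted p = 0.214) and 0.47 and 0.30 at 8 h (adjusted p = 0.0759). Both 8 h arrays were above 0 and apart from all earlier ones. With SB203580 the order was the same, with -0.47 and -0.27, then -0.48 and -0.15, then 0.46 and 0.17 (8 h adjusted p = 0.14). The p38α-/- arrays lay on both sides of 0, from -0.37 to 0.36.

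The second Mxi1 probe, A_51_P294994, was measured on only 14 arrays. Its outlier-marked values included, the 8 h NaCl arrays read 0.28 and 0.53 without and 0.20 and 0.35 with SB203580, and all other arrays were below 0. It could be tested against the pool with SB203580 and TNFα (-0.33, adjusted p = 0.115) and in p38α-/- MEFs with NaCl (-0.12, adjusted p = 0.507). It was opposite in sign to A_52_P270513 on 1 of 14 arrays (Pearson 0.705).

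Mnt, which represses with Max in growing and resting cells alike, was below the pool on all 26 measured arrays, from -0.69 to -0.16, the unstressed arrays of SB203580 alone and of p38α-/- MEFs included. In wild type MEFs the arrays read -0.32 and -0.28 with anisomycin (adjusted p = 0.0949), -0.32 and -0.61 with TNFα (adjusted p = 0.0166), and -0.67 and -0.44 (adjusted p = 0.00718), -0.32 and -0.39 (adjusted p = 0.0529, and 0.0443 with the block) and -0.37 and -0.31 (adjusted p = 0.0463) with NaCl for 45 min, 2 h and 8 h. The 45 min NaCl arrays lay below those of anisomycin and of 2 h and 8 h of NaCl, and the TNFα arrays spanned both. Mnt fell by 0.55 at 45 min of NaCl, a 1.47-fold reduction with an SD of 0.16. With SB203580 alone it read -0.16 and -0.69 (adjusted p = 0.013), the highest and the lowest of all measured Mnt arrays. It fell by 0.55 with SB203580 and anisomycin (adjusted p = 0.00672), by 0.59 with SB203580 and 2 h of NaCl (adjusted p = 0.00286), by 0.38 with anisomycin in p38α-/- MEFs (adjusted p = 0.0411) and by 0.45 with NaCl there (adjusted p = 0.0129). Each of its 8 calls ended without at least 1 array, among them 45 min of NaCl without the first (-0.44, adjusted p = 0.226) and SB203580 alone without the second (-0.16, adjusted p = 0.345). The other 6 ended without either array of the group (adjusted p from 0.0559 to 0.336).

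The course in NaCl was tested within wild type MEFs, where the pool cancels. Between 45 min and 2 h 1 of 5 member probes rose (0.0855% of all probes) and 0 fell (0.124%), between 2 h and 8 h 0 of 8 rose (3.34%) and 1 fell (4.43%), and between 45 min and 8 h 1 of 5 rose (3.03%) and 0 fell (3.68%). Nmyc1 A_52_P536494 rose by 1.30 from 45 min to 2 h (95% interval 0.84 to 1.76, adjusted p = 0.0241) and fell by 1.91 from 2 h to 8 h (-2.37 to -1.44, adjusted p = 6.48e-05). The second of these held whichever array was left out. The rise ended without either 45 min array (1.36 and 1.24, adjusted p = 0.115 and 0.204) or the first 2 h array (1.19, adjusted p = 0.103). Myc A_52_P108346 was 1.39 lower at 8 h than at 2 h without passing (-2.73 to -0.06, adjusted p = 0.237, and 0.0345 with the block), although its arrays did not overlap. Mxi1 A_52_P270513 rose by 0.79 from 45 min to 8 h (0.35 to 1.23, adjusted p = 0.0269), a call that ended without the first 45 min array (0.60, adjusted p = 0.297) or either 8 h array (0.71 and 0.88, adjusted p = 0.172 and 0.0652). The difference of 0.67 from 2 h to 8 h did not pass (adjusted p = 0.0575).

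Between stresses at 45 min, 0 of 4 probes differed between anisomycin and TNFα (0.14% of all probes called), 0 of 3 between anisomycin and NaCl (0.373%), and 0 of 4 were higher (0.339%) and 1 lower (0.0399%) in TNFα than in NaCl. That one was Nmyc1 A_52_P536494, lower by 1.25 in TNFα (-1.71 to -0.79, adjusted p = 0.0153). The call ended without the first TNFα array (-1.10, adjusted p = 0.226) or either NaCl array (-1.19 and -1.31, adjusted p = 0.194 and 0.0633). Myc A_52_P108346 did not differ by test between anisomycin and TNFα (-0.89, interval -2.23 to 0.44).

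The dependence on p38 was first read as the difference between stressed cells with and without SB203580. No member probe was called with anisomycin (0 of 5, 0.0122% of all probes called), TNFα (0 of 5, 0%), NaCl for 45 min (0 of 3, 0%) or NaCl for 2 h (0 of 7, 0%), and 1 of 5 was lower (0.0758%) and 0 higher (0.0878%) at 8 h. Across these 25 tests 3 had an unadjusted p under 0.05, all lower with the inhibitor and all of Nmyc1 A_52_P536494 in NaCl. It was 0.93 lower at 45 min (interval -1.39 to -0.47, adjusted p = 1), 1.26 lower at 2 h (-1.72 to -0.79, adjusted p = 0.115) and fell by 1.32 at 8 h (-1.78 to -0.86, adjusted p = 0.0179). The arrays with and without inhibitor did not overlap at any time. The 8 h call ended without the second array of NaCl alone (-1.17, adjusted p = 0.208) or the first with the inhibitor (-1.05, adjusted p = 0.37).

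**Figure D4:**
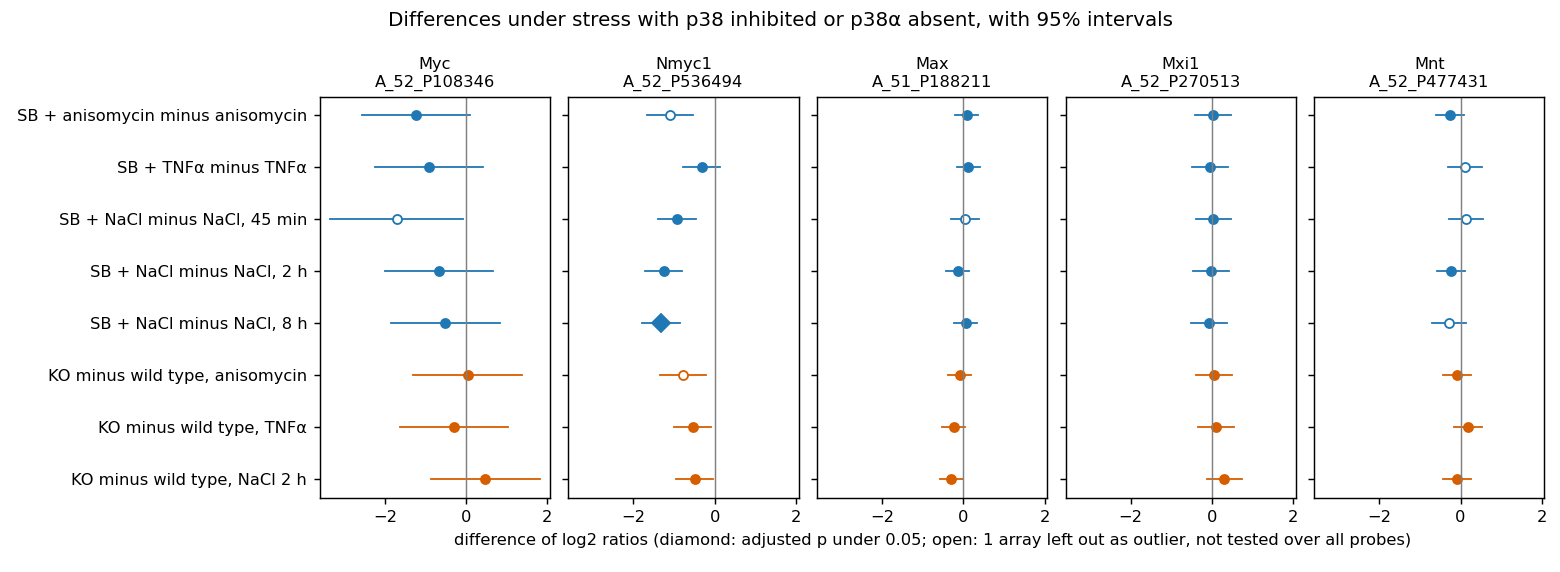
Differences in log2 ratio (horizontal axis) with 95% intervals for 1 probe per gene: SB203580 with stress minus stress alone, and p38α-/- minus wild type under the same stress, with a diamond for a call and open points where a spot was left out and no test was made. Nmyc1 A_52_P536494 lies below 0 in every NaCl comparison, at -0.93, -1.26 and -1.32 with the inhibitor and at -0.49 in p38α-/- MEFs, while the intervals of Myc are wide and that of Max in NaCl, at -0.30, ends just below 0.

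Myc A_52_P108346 was lower with SB203580 under all 5 stresses, without a call. The difference was -1.23 with anisomycin (interval -2.56 to 0.10), -0.92 with TNFα (-2.25 to 0.42), -0.67 at 2 h of NaCl (-2.00 to 0.67) and -0.51 at 8 h (-1.84 to 0.82), each with adjusted p = 1, and -1.71 at 45 min, which was not tested. That value set the first wild type array alone (2.35) against both SB203580 arrays (0.99 and 0.29), and first arrays tended to be higher. With the outlier spot of the second wild type array (1.06) kept, the wild type mean was 1.71, against 0.64 with SB203580. On A_51_P102096 the 45 min arrays read 2.13 and 0.87 without SB203580 and 1.29 and 0.34 with it, without a call. The intervals of anisomycin and TNFα hold both no difference and a fall of over 2 log2 units. They come from the model without the replicate block, although arrays of the same number deviated together. In each tested stress, each array with SB203580 read below the array of the same number without it. With the block none of these differences was called either. Max differed by -0.14 to 0.13 and Mxi1 A_52_P270513 by -0.07 to 0.04, without a call. Mnt differed by -0.25 with anisomycin and -0.23 at 2 h of NaCl, also without a call.

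Deletion of p38α gave no member call under the same stress (0 of 5 with anisomycin, 1.11% of all probes called; 0 of 5 with TNFα, 0.385%; 0 of 7 with NaCl, 0.611%). With limma, 3 of the 17 tests had an unadjusted p under 0.05, all lower in p38α-/- MEFs. They were Nmyc1 A_52_P536494 with TNFα (-0.55, interval -1.01 to -0.08, adjusted p = 0.533) and with NaCl (-0.49, interval -0.96 to -0.03, adjusted p = 0.367), and Max with NaCl (-0.30, interval -0.58 to -0.02, adjusted p = 0.367). Within the scan date that second wild type and first p38α-/- arrays shared, Nmyc1 differed by -0.59 with anisomycin, -0.88 with TNFα and -0.43 with NaCl on A_52_P536494, the first with an outlier-marked wild type spot kept. The other Nmyc1 probe differed there by 0.28 (outlier-marked wild type spot kept), 0.15 and -0.12, so the 2 probes had opposite signs for anisomycin and TNFα. Max with NaCl differed by -0.05 within the shared date. Myc A_52_P108346 differed by 0.04 (-1.30 to 1.37), -0.30 (-1.63 to 1.04) and 0.47 (-0.86 to 1.81), with adjusted p of 0.998, 0.958 and 0.803. Within the shared date the same differences were 1.44, 0.71 and 0.86, all higher in p38α-/- MEFs, and with the scan date as a term none passed (adjusted p = 0.469, 0.783 and 0.237). Each within-date value sets a single first p38α-/- array against a single second wild type array. For Myc the first array was the higher in 8 of 10 wild type and 3 of 4 p38α-/- groups, so number and genotype cannot be told apart there. Mxi1 A_52_P270513 differed by 0.04, 0.10 and 0.31 and Mnt by -0.08, 0.18 and -0.09, without a call.

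Each genotype was next compared with its own baseline. Against untreated p38α-/- MEFs 0 of 5 probes were called with anisomycin (0.0569% of all probes called) and 0 of 4 with TNFα (0.0778%), and 2 of 5 rose (0.622%) and 0 fell (0.99%) with NaCl. Nmyc1 A_52_P536494 rose by 2.77 (interval 2.31 to 3.23, adjusted p = 7.6e-06) and kept its call whichever array was left out. Myc A_52_P108346 rose by 2.68 (1.35 to 4.02, adjusted p = 0.0406), which ended without the second untreated array (1.79, adjusted p = 0.26) or either NaCl array (2.74 and 2.63, adjusted p = 0.0739 and 0.319). The second Myc probe differed by 2.55 (adjusted p = 0.0588, and 0.0121 with the block). With TNFα Myc was 1.71 above its untreated level (0.38 to 3.05, adjusted p = 1).

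An induction was then defined as stress minus the unstressed level of the same condition, which is the pool for wild type, SB203580 alone for the inhibitor and untreated cells for p38α-/-. A constant dye offset of a probe cancels in the inductions with the inhibitor or in p38α-/- MEFs, but not in those of wild type. Differences of inductions with SB203580 gave 0 calls in 4 with anisomycin (0.823% of all probes called), 0 in 4 with TNFα (1.17%) and 0 in 2 at 45 min of NaCl (0.0213%), 2 lower in 5 (1.49%) and 0 higher (0.962%) at 2 h, and 1 lower in 4 (0.407%) and 0 higher (0.176%) at 8 h. In p38α-/- MEFs they gave 0 in 4 with anisomycin (0.644%), 0 in 4 with TNFα (0.63%) and 0 in 5 with NaCl (0.0715%). Over the 32 tests the calls went from 3 to 8 when the replicate number was added as a block. All of these share the pool, and those with SB203580 share the inhibitor arrays. The same group of SB203580 alone served as baseline for 45 min, 2 h and 8 h of stress. Time in the inhibitor was therefore not matched across these differences.

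The induction of Nmyc1 A_52_P536494 was smaller with SB203580 by 1.28 at 2 h of NaCl (-1.28, interval -1.85 to -0.71, adjusted p = 0.0212) and by 1.34 at 8 h (-1.34, interval -1.91 to -0.78, adjusted p = 0.0354). The 2 h call ended without the first array of NaCl, of SB203580 or of both together (-1.17, -1.01 and -1.16, adjusted p up to 0.233). The 8 h call ended without the second NaCl array, the first SB203580 array or the first array of both together (-1.19, -1.07 and -1.07, adjusted p up to 0.336). In p38α-/- MEFs the induction by NaCl differed from wild type by -0.12 (interval -0.69 to 0.44, adjusted p = 0.848), with the untreated p38α-/- mean at -0.37. Whether the inhibitor and the deletion differed in this was not tested. On A_52_P536494 all 8 differences of inductions were below 0. On the other Nmyc1 probe, A_51_P497332, all 8 were above 0, from 0.20 to 0.59. None of these could be tested, since outlier spots were left out. The unstressed values of this probe, from 1 measured array each, were -0.64 with SB203580 alone and -0.45 in untreated p38α-/- MEFs. In the direct difference between stress with and without SB203580 it was lower with the inhibitor under all 5 stresses. These values ran from -0.44 to -0.06, and neither of the 2 that could be tested was called. Between p38α-/- and wild type MEFs under stress it was above 0 in 2 and below 0 in 1.

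The induction of Max was smaller with SB203580 at 2 h of NaCl (-0.88, interval -1.22 to -0.54, adjusted p = 0.0148), where the inhibitor alone stood at 0.74 and the direct difference between NaCl with and without it was -0.14 (no call), and the call ended without the first array of NaCl, of SB203580 or of both together (-0.67, -0.73 and -0.91, adjusted p = 0.0808, 0.162 and 0.106). The other 3 tested with SB203580 lay between -0.69 and -0.62 (adjusted p = 0.0627, 0.0735 and 0.0591) and passed with the block (0.028, 0.0331 and 0.0251). In p38α-/- MEFs the NaCl value was -0.65 (adjusted p = 0.108, and 0.0485 with the block). All 8 differences of inductions estimated for Max were below 0. Max was above the pool on every array, and a constant dye offset enters only the wild type induction. A smaller induction of Max therefore cannot be told apart from such an offset. For Myc A_52_P108346 the inductions with SB203580 were lower by values from -1.84 with anisomycin (adjusted p = 0.227, and 0.0461 with the block) to -1.12 at 8 h of NaCl (adjusted p = 0.49). In p38α-/- MEFs they differed by -0.92, -1.25 and -0.48, without a call. On the third Myc probe, A_52_P278549, the 5 differences of inductions that could be estimated were above 0, from 0.37 to 0.63. None of these was tested.

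Placed in order of their means, the 15 groups could be separated for few members. Of the neighbours in that order with both arrays measured, 11 of 12 overlapped for Myc A_52_P108346 and the only gap lay between 8 h of NaCl without and with SB203580. For Nmyc1 A_52_P536494 8 of 12 overlapped, for Max 11 of 12, for Mxi1 A_52_P270513 13 of 14 and for Mnt 7 of 7.

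Other genes of the Myc network were described with 21 of 23 listed genes on the array (41 probes). With anisomycin 2 of 26 tested probes rose and 4 fell, where 6.97% of all probes rose and 6.39% fell (median -0.15, against 0.01 over all probes tested). With TNFα 2 of 25 rose and 5 fell (7% and 6.23% of all, median -0.16 against 0.01). After 45 min of NaCl 3 of 14 rose and 2 fell (5.88% and 5.89%, -0.17 against 0.01), after 2 h 3 of 35 rose and 4 fell (6.33% and 6.14%, -0.09 against 0), and after 8 h 1 of 26 rose and 6 fell (10.5% and 10.1%, -0.08 against 0.01). Sin3b, a corepressor scaffold used by the Mxd proteins and Mnt, was among the genes that rose under each stress, by 1.03 at 2 h of NaCl (adjusted p = 2.85e-05). Mxd4, a repressive Max partner, was among those that fell under each stress, by 0.61 with anisomycin (adjusted p = 0.000495). Huwe1, an E3 ligase that acts on Myc proteins, fell by 1.43 at 45 min of NaCl (adjusted p = 0.00215). Mxd3, a further Max partner, fell by 2.27 at 8 h of NaCl (adjusted p = 5.72e-06). SB203580 alone and untreated p38α-/- MEFs, which had no stress, also showed Sin3b among the genes called higher and Mxd4 and Huwe1 among those called lower. The probes of Trrap, a histone acetyltransferase scaffold, disagreed in direction with anisomycin and at 2 h of NaCl.

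Textbook target genes that Myc activates were read on 18 of 20 listed genes (33 probes). With anisomycin 2 of 12 tested probes rose and 0 fell (6.97% and 6.39% of all probes, median 0.15 against 0.01), and with TNFα 2 of 8 and 0 (7% and 6.23%, 0.14 against 0.01). After 45 min of NaCl 2 of 7 rose and 0 fell (5.88% and 5.89%, 0.32 against 0.01), after 2 h 3 of 17 and 1 (6.33% and 6.14%, -0.10 against 0), and after 8 h 6 of 15 and 1 (10.5% and 10.1%, 0.45 against 0.01). Eif4e, the cap-binding initiation factor, rose with every stress and was also called higher with SB203580 alone. It rose by 1.07 with anisomycin on probe A_52_P1035759 (adjusted p = 0.000509). At 8 h of NaCl it rose by 1.30 on another probe, A_52_P310981 (adjusted p = 5.71e-05). The nucleolar genes Ncl and Npm1 rose by 1.12 (adjusted p = 9.78e-06) and 1.22 (adjusted p = 0.00336) at 8 h. Cdca7 fell at 2 h and Ccnd2, a cyclin, at 8 h. Of the 6 genes that Myc represses (8 probes), none rose under stress in wild type MEFs, Cebpa fell by 0.66 at 2 h (adjusted p = 0.0271) and Cdkn1a, a cell cycle inhibitor, fell at 8 h, with 1 to 5 probes tested per stress. Against the pool, Cebpa was also called lower in untreated and NaCl-treated p38α-/- MEFs, and Gadd45a, a growth arrest gene of the same list, was called higher in the latter.

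Genes whose group means followed a member most closely were found by Pearson correlation over the 15 groups, which share the pool, among 11865 probes measured in all of them. Myc A_52_P108346 was closest to Zfp36l1, an mRNA decay factor (0.901), then to Adamts1, a secreted protease (0.851), and Cryba4, a lens crystallin gene (0.826), although the latter was below 0 in every group. Nmyc1 A_52_P536494 was closest to 2900083I11Rik (0.922), 9630033C03Rik (0.916) and Resp18 (0.912). Max was closest to Gabarapl2, an autophagy gene (0.938), Mgea6 (0.933) and E430034L04Rik (0.932). Mxi1 A_52_P270513 was closest to 2310061I04Rik (0.909), 2700038G22Rik (0.899) and F830029L24Rik (0.896). Mnt was closest to 9330158H04Rik (0.855), Adipor2, an adiponectin receptor (0.833), and 1700024D23Rik (0.762).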

How the data were processed

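Samples were 30 two-colour Agilent 44K arrays of RNA amplified in 2 rounds, treated culture in Cy5 and wild type pool in Cy3, 2 arrays in each of 15 groups. The replicates are described as 2 independent experiments, and p-values measure the spread between these arrays only. The authors scanned them with Feature Extraction, version 8.1.1.1 per the file headers (the labels name another version), with spatial detrending and linear plus LOWESS dye normalization. The deposited log10 ratios of Cy5 over Cy3 were multiplied to log2. Deposited red and green intensity columns, corrected with normexp (offset 50) and loess, and the deposited log2 values of the series matrix served as alternatives. The matrix followed the main values in direction (correlation 0.779 to 0.956, slope 0.886 to 0.980, column medians -0.06 to 0.03), and how it was centred stays unknown.

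Control spots were removed, as was any spot with an outlier mark in Cy3 or Cy5, and the rest were averaged per probe. Depth is not defined for arrays, and 2 per group limit the precision. One model with 15 group means over all arrays was fitted with limma 3.58.1 (R 4.3.3, 15 residual and 2.72 prior degrees of freedom). Benjamini-Hochberg adjustment ran over all probes with every array of the compared groups measured, and intervals are 95%, unadjusted. Figures and counts used Python 3.11.15, pandas 2.3.3 and matplotlib 3.10.9. The steps were tested on simulated data.

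Arrays of the same number deviated together within a genotype (55 of 55 wild type pairs, correlation 0.17 to 0.711, and 6 of 6 p38α-/- pairs, 0.125 to 0.446), though in only 5 of 44 pairs across genotypes. The number was therefore used as a block in an alternative, stated beside a result where it changes a call. The pairing comes from the labels' replicate numbers. In wild type the number coincides with the scan date, the first p38α-/- arrays share the date of the second wild type ones, and the second p38α-/- arrays were scanned on other dates.

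Members, lists and comparisons were chosen with earlier results of these data known. All member probes are named, with, from the lists of other network and target genes, some of the up to 3 genes per list and stress with the largest changes past the threshold and, for each member's main probe, up to 3 probes of the closest pattern. Trrap, Cdca7, Ccnd2, Cdkn1a and Gadd45a were named after their values were seen. Accessions of 8 of 9 probes matched RefSeq.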

Additional observations from a re-analysis of the deposited data

Results flagged for a closer look

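Differences of inductions by NaCl passed the test for Max at 2 h (-0.88, adjusted p = 0.0148) and for Nmyc1 A_52_P536494 at 2 h (-1.28, adjusted p = 0.0212) and 8 h (-1.34, adjusted p = 0.0354), all smaller with SB203580, and each rests on the 2 arrays of SB203580 alone. A constant dye offset enters only the wild type induction in each, and Max was above the pool on every array. The other Nmyc1 probe, untested, lay above 0 in all 8 differences of inductions. In the direct differences between stress with and without SB203580 that probe lay below 0 in all 5, from -0.44 to -0.06, without a call.

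For Max, both TNFα arrays of p38α-/- MEFs were below the untreated mean of that genotype while both wild type TNFα arrays were above the pool, and the difference of -0.59 did not pass (adjusted p = 0.101). Max was above the pool on every array, those of unstressed groups included. A constant dye offset enters only the wild type value here and cannot be told apart from a response to TNFα. Mxi1 A_52_P270513 was below the pool on all arrays at 45 min and 2 h of NaCl and above it at 8 h. The difference of 8 h from 45 min was 0.79 (adjusted p = 0.0269) and that from 2 h was 0.67 (adjusted p = 0.0575).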

How the results depend on the processing

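Many counts of calls moved with the outlier spots, which when kept let more probes be tested, and with the series matrix. With outlier spots kept, calls rose from 19 to 30 for wild type stress against the pool, from 15 to 30 for the SB203580 groups, from 3 to 11 for differences of inductions, from 32 to 59 for the network list and from 19 to 69 for the target lists. With the series matrix these became 32, 29, 14, 61 and 75, with 4 (from 2) for stress against untreated p38α-/- MEFs and 8 (from 3) for the NaCl times. With normexp and loess the differences of inductions gave 8 and the NaCl times 6. With the replicate block the differences of inductions gave 8, the network list 41 and the target lists 27, and for the member probes it changed no call beyond those given with it in the report. The block with outlier spots kept, chosen after seeing the data, gave 31 for wild type stress and 15 for inductions. With the scan date as a term inductions gave 6. With the probes of a gene averaged, calls were 6 (from 12) for p38α-/- against the pool, 0 (from 1) for SB203580 with stress against stress, 1 (from 2) against untreated p38α-/- MEFs, 1 for inductions, 17 for the network and 6 for the targets. Myc A_52_P278549 at 2 h of NaCl turned to 1.97 (adjusted p = 0.0257), because the mean takes in the other Myc probes. With only arrays of the same genotype in the fit, p38α-/- against the pool gave 3 (from 12), against untreated p38α-/- 1, and the NaCl times 5. Those 3 were the 2 h NaCl calls of Myc A_52_P108346, Myc A_51_P102096 and Nmyc1 A_52_P536494. The p38α-/- calls of Max, Mnt and Nmyc1 A_51_P497332 against the pool ended there, as did those of Myc with anisomycin and TNFα. The cause of the other shifts was not tested.

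Leaving out one array at a time gave 15 to 20 calls for wild type stress, 11 to 16 for SB203580 groups, 8 to 11 for p38α-/-, 0 to 1 for SB203580 with stress against stress, 0 to 0 for p38α-/- against wild type stress, 1 to 2 against untreated p38α-/-, 0 to 7 for inductions, 1 to 3 for NaCl times, 0 to 1 between stresses, 24 to 32 for the network and 15 to 19 for the targets. Of the 56 calls, 17 held whichever array was left out and 39 did not. A group reduced to 1 array is assumed to vary like the others.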
